A study of Arabidopsis thaliana with 18 samples.

Results

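The comparison sets roots of Arabidopsis thaliana exposed to lanthanum (La) against roots exposed to ytterbium (Yb), gene by gene. A gene was tested when its value reached 1 in at least 3 of the 9 root libraries, which kept 22729 of the 28991 genes in the root table. The plants were wild type of the Col-0 accession, 6 weeks old and grown in liquid culture. One group received 5 µM LaCl3 and another 5 µM YbCl3 for 72 h, and a control group received neither salt. All 3 groups, the controls included, stood in medium lacking phosphate. Each group has 3 replicates, and the roots of 3 plants were pooled for each. The labels do not say whether replicates came from separate containers, so the p-values measure the spread between these pools, which may be partly technical. The whole series holds 18 libraries; its shoot libraries are not used here.

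La and Yb are both rare earth elements that form trivalent ions in water. La is the lightest of the lanthanides and has the largest ion, Yb is among the heaviest and has a smaller one. Rare earth ions bind phosphate tightly and are used in physiology as blockers of calcium channels. Roots take up nutrients through epidermal cells, of which hair cells grow long tubular outgrowths. The endodermis further inside seals the path between cells with Casparian strips of lignin and with suberin, a fatty polymer. Iron uptake in Arabidopsis runs through the ferric reductase FRO2 and the transporter IRT1 at the epidermis, under the transcription factor FIT and its partners, among them BHLH38, and under the short IMA peptides.

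The 9 root libraries held 12.8 to 16.22 M reads assigned to genes. Replicates differed by more than counting error, with a chi-square per degree of freedom of 7.43 to 22.56 between replicate libraries. On the first principal component, which held 45.3% of the variance, La 1, La 2 and La 3 lay at 58.8, 93.7 and 63.2. Yb 1 and Yb 2 lay at 9.2 and 9.9, while Yb 3 lay at -50.8, next to the controls at -66.1 to -55.5. The second component held 14.5%. Where leaving out a library moved the difference of a named gene that passed by over 1.5 times, the value without it is given. For genes described by a bound or a ratio, this was applied to the bound or ratio. Levels below are normalised reads, meaning reads per gene that the authors scaled by 1 factor for each library. They were not divided by gene length, so levels are compared between libraries and never between genes. Differences are on the log2(value + 0.5) scale with their standard error, La minus Yb, and understate the change of genes with few reads.

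**Figure D1:**
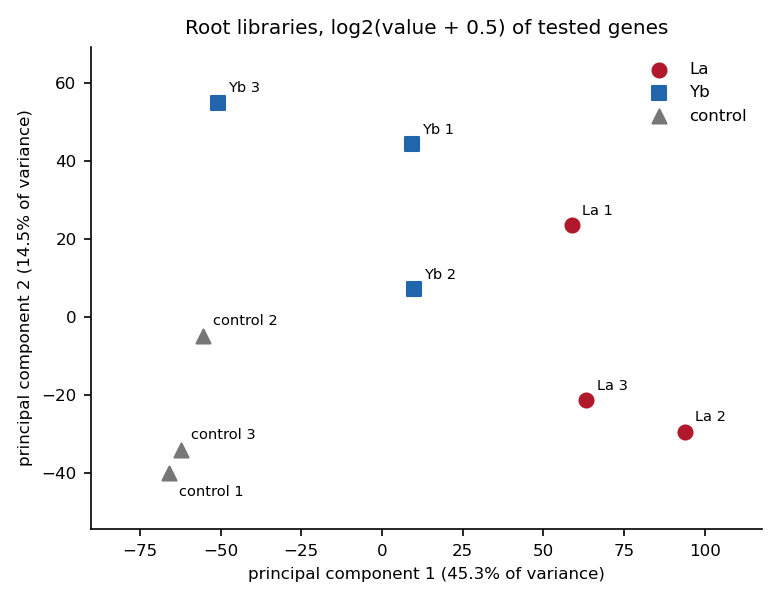
First and second principal components of the 9 root libraries, from the log2 values of all tested genes; points are single libraries and colours are the treatment groups. The La libraries lie on the right at 58.8 to 93.7 on the first component, Yb 1 and Yb 2 between the groups, and Yb 3 at -50.8 beside the controls.

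La roots had more transcripts than Yb roots of the zinc transporter gene ZIP2 and of 7 of 25 glutathione transferases. They had fewer of 5 of 23 genes of root hair growth, 4 of 13 genes of the AIR1 and EARLI1 type, 5 of 25 genes of salicylic acid signalling and immunity, and of the beta-glucosidase gene BGLU21. Of the 22729 genes, 1466 had an adjusted p below 0.05 and passed (6.45%), 600 higher with La (2.64%) and 866 lower (3.81%). The groups of all 1466 did not overlap, as was the case for 28.7% of all genes tested. The lower genes had a median difference of -1.08 and the higher ones of 0.58. A difference of at least 1 on the log2 scale was seen in 462 lower and 95 higher genes, and of at least 2 in 230 and 17. The median over all tested genes was 0.01. For 16317 genes (71.8%) the 95% interval of the difference lay within 1 log2 unit of 0 on either side.

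The number of genes past the threshold depended on single libraries. It was 336 without La 2, 250 without La 3, 542 without Yb 1, 594 without Yb 3 and 876 without control 3. Without the other 4 libraries it was 1026 to 1475. The excess of lower over higher genes turned round when the 6 La and Yb libraries were fitted alone, with 270 higher and 238 lower. Among the 866 genes lower with La, Yb 3 was the highest Yb library in 76.9%, against 36.6% of all genes tested, and La 2 was the lowest La library in 57.6%, against 33.1%. Among the 600 higher genes, Yb 3 was the lowest Yb library in 65.3% and La 2 the highest La library in 52.7%, against 34.9% and 33.6% of all genes. In both directions Yb 3 thus tended to lie farthest from the La libraries, and La 2 farthest from the Yb libraries. edgeR on the recovered reads left XTH11, GSTU22, AT4G19750, AT4G12510, AT3G18450, AT1G51810, AT3G46340, AT4G12520, ZIP10, ZIP5, HMA5, RHD6, ACS5 and GL2 short of the threshold (adjusted p = 0.0501 to 0.167), all of which limma called. For AT4G19750 and AT1G51810, DESeq2 gave no adjusted p. A core of 184 genes, 84 higher and 100 lower with La, stayed past the threshold without each of the 9 libraries in turn.

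**Figure D2:**
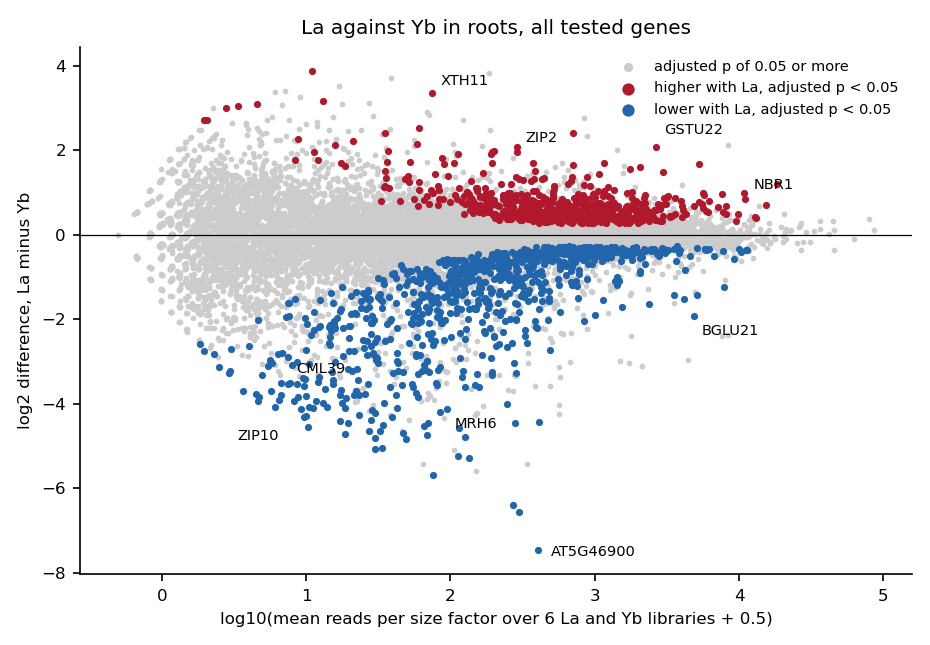
Log2 difference, La minus Yb, of each tested gene against its mean level over the 6 La and Yb libraries on a log10 axis; red genes are higher and blue genes lower with La at an adjusted p below 0.05, and grey genes did not pass. The lower genes reach -7.47 at AT5G46900, while the labelled higher genes reach 3.35 at XTH11.

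The genes with the smallest adjusted p were all lower with La. AT1G54010, a GDSL-type lipase gene, had 101, 117 and 118 normalised reads in La roots, 565, 415 and 659 in Yb roots and 389, 322 and 464 in control roots. It fell by 2.26 ± 0.18 (adjusted p = 0.00163), and its 3 La values lie below every other root library. The chitinase family gene AT1G56680 had 113, 74.3 and 93.1 with La, 363, 425 and 358 with Yb and 305, 257 and 359 in the controls, and fell by 2.04 ± 0.17 (adjusted p = 0.00163). AT2G34020, which encodes a protein with calcium-binding EF hands, had 231, 194 and 223 with La, 578, 717 and 639.9 with Yb and 475, 480.0 and 624 in the controls. It fell by 1.57 ± 0.13 (adjusted p = 0.00163), with La low and the Yb and control libraries side by side. BGLU21 (AT1G66270), a beta-glucosidase gene of roots, had 2207, 1988 and 1803 with La, 7122, 6333 and 9685 with Yb and 9841, 7627 and 10182 in the controls, and fell by 1.93 ± 0.17 (adjusted p = 0.00224). NSP4 (AT3G16410), a nitrile specifier protein that steers the breakdown of glucosinolates, had 176, 157 and 199.7 with La, 391, 394 and 364 with Yb and 477, 483 and 492 in the controls, and fell by 1.11 ± 0.10 (adjusted p = 0.00224). In each of these genes the La libraries form a narrow group apart from both other groups. Against the controls they gave -2.20 ± 0.17 for La minus control and -0.27 ± 0.17 for Yb minus control for BGLU21, and -1.79 ± 0.18 for La minus control and 0.47 ± 0.18 for Yb minus control for AT1G54010; the control libraries are shared by both values. All 5 stayed past the threshold without each of the 9 libraries in turn. BGLU21 is 90.3% identical to BGLU22 over 1975 bases and NSP4 is 90.6% identical to NSP1 over 1641 bases, so reads of such copies may have been counted for each other.

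The largest difference belonged to genes of the AIR1 and EARLI1 type, which encode small secreted proline-rich proteins with a lipid-transfer fold. Of 13 tested members 4 fell with La and 9 did not pass, with a list median of -1.56. AT5G46900 had 6.33, 0 and 3.84 normalised reads in La roots, 319, 130.1 and 1982 in Yb roots and 2407, 2026 and 2395 in control roots. It fell by 7.47 ± 1.21 (adjusted p = 0.0205), nearly absent with La while Yb 3 stood at the level of the controls. AT5G46890 had 4.22, 0.874 and 3.84 with La, 178, 66.5 and 1373 with Yb and 2151, 1953 and 1668 in the controls, and fell by 6.39 ± 1.04 (adjusted p = 0.0208). AT4G12510 (fell by 5.69 ± 1.13, adjusted p = 0.0329) and AT4G12520 (fell by 4.79 ± 1.07, adjusted p = 0.0449) were at most 17.9 normalised reads in every La library. AIR1 (AT4G12550) itself, induced by auxin in roots, averaged 1556 ± 98.3 with La, 5517 ± 3480 with Yb and 12311 ± 4780 in the controls (SD, n = 3 each), a difference of -1.62 ± 0.46 (adjusted p = 0.0808). The 4 genes that fell are copies in pairs, AT5G46890 with AT5G46900 at 94.5% identity and AT4G12510 with AT4G12520 at 93.3%, so the reads of a pair cannot be parted with confidence. For AT5G46900, the difference changed on leaving out La 1 (to -8.21), La 2 (to -6.32), Yb 2 (to -8.34) or Yb 3 (to -6.38). For AT5G46890, the difference changed on leaving out Yb 2 (to -7.35) or Yb 3 (to -5.17). For AT4G12510, the difference changed on leaving out La 1 (to -6.51), La 2 (to -4.89), Yb 2 (to -6.69) or Yb 3 (to -4.58). For AT4G12520, the difference changed on leaving out La 1 (to -5.61), La 2 (to -3.74), Yb 2 (to -5.47) or Yb 3 (to -3.95). AT5G46900 did not pass without La 3, Yb 1 or Yb 3 (adjusted p = 0.0521 to 0.0577). AT5G46890 did not pass without La 2, La 3 or Yb 1 (adjusted p = 0.0515 to 0.067). AT4G12510 passed without La 1 or Yb 2, but not without any other library (adjusted p = 0.0501 to 0.106). AT4G12520 passed without La 1 or Yb 2, but not without any other library (adjusted p = 0.0655 to 0.137). The list count ran from 0 without La 3 or Yb 1 to 6 without La 1, and was 0 in the 6 La and Yb libraries alone.

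Other large falls came from genes with few or no reads in La roots. AT1G51810, a receptor-like kinase gene with leucine-rich repeats, was at 0 in all 3 La libraries, against 7.62, 2.98 and 166 with Yb and 39.9, 55.8 and 36.0 in the controls. It was at least 20.4-fold lower with La than with Yb, computed against a floor of 3 reads per library (adjusted p = 0.0422). The bound rests on Yb 3, without which it is 1.83-fold. A second kinase gene of this type, AT3G46340, had 0, 0.874 and 0.96 with La, 22.9, 5.96 and 145 with Yb and 94.3, 61.8 and 65.8 in the controls, 2 reads in all with La. The ratio of La to Yb was 0.0113 (95% counting interval 0.00135 to 0.0413, adjusted p = 0.0281), and 0.0437 without Yb 3 (95% counting interval 0.00507 to 0.172). AT3G07490, annotated both as AGD11 and as the calmodulin-like gene CML3, had 2.11, 0 and 0.96 with La, 21.9, 19.9 and 154 with Yb and 122, 77.7 and 73.0 in the controls, 3 reads in all with La. Its ratio was 0.015 (95% counting interval 0.00308 to 0.0446, adjusted p = 0.0155). It was 0.0458 without Yb 3 (95% counting interval 0.00909 to 0.143) and 0.0237 without La 2 (95% counting interval 0.00484 to 0.0703); with La 1 left out, 0.00719. AT1G24485, annotated as a carbohydrate-binding protein of the endoplasmic reticulum, fell by 4.84 ± 0.76 (adjusted p = 0.0147), and AT3G18450, a PLAC8 family gene, fell by 5.23 ± 1.04 (adjusted p = 0.0332). AT1G50050, of the family of cysteine-rich secretory proteins, had 19.0, 0.874 and 9.6 with La, 235, 198 and 344 with Yb and 359, 726 and 274 in the controls, and fell by 5.29 ± 0.92 (adjusted p = 0.0229). CER4 (AT4G33790), an acyl reductase that makes the alcohols of waxes, fell by 4.75 ± 0.99 (adjusted p = 0.0365). The chitinase-like gene AT4G19750 had 3.17, 1.75 and 0 with La, 60.0, 33.8 and 1704 with Yb and 103, 104 and 88.4 in the controls. It fell by 6.57 ± 1.43 (adjusted p = 0.0416), and Yb 3 alone stood far above the controls.

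For AT1G24485, the difference changed on leaving out Yb 2 (to -5.65) or Yb 3 (to -3.88). For AT3G18450, the difference changed on leaving out La 1 (to -6.31), La 2 (to -4.48) or Yb 3 (to -4.34). For AT1G50050, the difference changed on leaving out La 1 (to -6.08) or La 2 (to -4.17). For CER4, the difference changed on leaving out La 1 (to -5.78), La 2 (to -4.04), Yb 2 (to -5.48) or Yb 3 (to -4.11). For AT4G19750, the difference changed on leaving out La 1 (to -7.17), La 3 (to -5.73), Yb 1 (to -7.24), Yb 2 (to -7.65) or Yb 3 (to -4.83). AT1G51810 passed without Yb 2 or Yb 3, but not without any other library (adjusted p = 0.0619 to 0.129). AT3G46340 did not pass without La 1, La 2, La 3 or Yb 1 (adjusted p = 0.0699 to 0.0845). AT3G07490 did not pass without La 2 or La 3 (adjusted p = 0.0527 to 0.0577). AT1G24485 did not pass without La 2 or La 3 (adjusted p = 0.0542 to 0.0598). AT3G18450 passed without La 1 or Yb 2, but not without any other library (adjusted p = 0.0526 to 0.111). AT1G50050 did not pass without La 3, Yb 1 or Yb 3 (adjusted p = 0.0579 to 0.0894). CER4 passed without La 1 or Yb 2, but not without any other library (adjusted p = 0.0517 to 0.121). AT4G19750 passed without Yb 2 or Yb 3, but not without any other library (adjusted p = 0.0619 to 0.131). AT4G19750 shares 90.7% of 1081 bases with its neighbour AT4G19760, whose reads may have been counted with it.

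Regulators of both cell fates of the root epidermis fell with La. Of 13 tested regulators of hair and non-hair fate, 4 fell with La and 9 did not pass; 12 of the 13 differences were negative and the list median was -0.86. WER (AT5G14750), the MYB factor that marks non-hair cells, had 148, 122 and 108 normalised reads in La roots, 276, 303 and 372 in Yb roots and 273, 264 and 264 in control roots. It fell by 1.33 ± 0.14 (adjusted p = 0.00536), with every La library below, and every Yb library above, the 3 controls. RHD6 (AT1G66470), which starts hair growth, had 86.5, 54.2 and 41.3 with La, 157, 154 and 315 with Yb and 279.5, 124 and 239.5 in the controls, and fell by 1.76 ± 0.41 (adjusted p = 0.0432). GL2 (AT1G79840), the homeodomain factor that holds back hair growth in non-hair cells, fell by 0.86 ± 0.22 (adjusted p = 0.0482), and EGL3 (AT1G63650), a bHLH partner of WER, fell by 0.63 ± 0.15 (adjusted p = 0.0418). Among factors downstream of RHD6, RSL2 (AT4G33880) had 68.6, 7.86 and 28.8 with La, 161, 125 and 374 with Yb and 500.2, 296 and 331 in the controls, a difference of -2.94 ± 0.75 (adjusted p = 0.0615) with groups that did not overlap. RSL4 (AT1G27740) had a difference of -0.51 ± 0.51 (adjusted p = 0.61) with groups that overlapped. WER stayed past the threshold without each of the 9 libraries in turn. RHD6 passed without La 1 or control 2, but not without any other library (adjusted p = 0.0515 to 0.136). GL2 passed without La 1, but not without any other library (adjusted p = 0.0649 to 0.145). EGL3 passed without La 1 or Yb 2, but not without any other library (adjusted p = 0.0578 to 0.131). The list count ran from 1 without La 2, La 3, Yb 1, Yb 3, control 1 or control 3 to 5 without La 1. Without Yb 3 it was 1 and the list median -0.63, and in the 6 La and Yb libraries alone it was 1.

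Of 23 tested genes that build the hair itself, 5 fell with La, 18 did not pass and none was higher past the threshold. All but 1 of the differences were negative, the list median was -3.04, and 19 members had La libraries wholly below the Yb libraries, as had 14.8% of all genes tested. MRH6 and COW1 are described beside the 3 genes that the naming rule took, having been chosen after their values were seen. MRH6 (AT2G03720), a gene named for misshapen root hairs in its mutant, had 7.38, 2.62 and 17.3 normalised reads in La roots, 109, 57.6 and 368 in Yb roots and 432, 252 and 252 in control roots. It fell by 4.13 ± 0.80 (adjusted p = 0.0284), the largest fall of the list. RHS18 (AT5G22410), a root hair peroxidase gene, had 5.27, 2.62 and 17.3 with La, 60.0, 42.7 and 108 with Yb and 119.8, 98.6 and 123 in the controls, and fell by 3.27 ± 0.58 (adjusted p = 0.0187). COW1 (AT4G34580), a phosphatidylinositol transfer protein that keeps hair tips growing, had 53.8, 9.61 and 49.0 with La, 252, 175 and 626 with Yb and 782, 544 and 536 in the controls, and fell by 3.33 ± 0.72 (adjusted p = 0.0412). RHS10 (AT1G70460), a receptor-like kinase also called PERK13, fell by 2.41 ± 0.48 (adjusted p = 0.0284), and the kinesin gene MRH2 (AT3G54870) fell by 1.46 ± 0.24 (adjusted p = 0.0137). In these genes the La libraries are low, with La 2 the lowest or joint lowest in MRH6, RHS18, COW1 and RHS10, and Yb 3 is the highest Yb library. The expansin gene EXPA7 (AT1G12560), which loosens hair walls, had 36.9, 2.62 and 26.9 with La, 169.6, 135 and 632 with Yb and 544, 467 and 363 in the controls, and its difference of -4.05 ± 0.99 did not pass (adjusted p = 0.0557). La 2 lies far below La 1 and La 3 here, and Yb 3 far above Yb 1 and Yb 2.

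Other members had small differences. The NADPH oxidase gene RBOHC (AT5G51060) had -0.41 ± 0.23, the cellulose synthase-like gene CSLD3 (AT3G03050) -0.30 ± 0.10 and SCN1 (AT3G07880), which confines hair initiation to a single site, -0.29 ± 0.11, none past the threshold (adjusted p = 0.347, 0.091 and 0.131). In bulk roots, fewer hair cells and less of these transcripts per hair cell cannot be told apart. Summed over the 23 genes, the La libraries held 4907, 4483 and 5618 normalised reads and the Yb libraries 9330, 7286 and 18431, against 14004 to 19384 in the controls. Of these reads, RBOHC, CSLD3 and SCN1 held 650, 885 and 1615 in La 1 and 900, 1147 and 1871 in Yb 1. Genes with many reads and small differences thus weigh heavily in the sums. The sum of Yb 3 lies inside the range of the controls. Against the controls MRH6 had -5.31 ± 0.80 for La minus control and -1.19 ± 0.80 for Yb minus control, and EXPA7 -4.94 ± 0.99 for La minus control and -0.89 ± 0.99 for Yb minus control; both differences use the same 3 control libraries. Without Yb 3 the list median was -2.53 and 2 members passed, and in the 6 La and Yb libraries alone 1 passed. For MRH6, the difference changed on leaving out La 2 (to -3.49), La 3 (to -4.74), Yb 2 (to -4.72) or Yb 3 (to -3.39). For RHS18, the difference changed on leaving out La 3 (to -3.95). For COW1, the difference changed on leaving out La 2 (to -2.54). The count ran from 1 without La 3 or Yb 1 to 9 without Yb 2 when a library was left out, and it was 16 with DESeq2 on the recovered reads. MRH6 did not pass without La 1, La 2, La 3, Yb 1 or Yb 3 (adjusted p = 0.05 to 0.0837). RHS18 did not pass without Yb 1 or Yb 3 (adjusted p = 0.0502 to 0.0516). COW1 passed without La 1 or Yb 2, but not without any other library (adjusted p = 0.0614 to 0.131). RHS10 did not pass without La 2, La 3 or Yb 1 (adjusted p = 0.0595 to 0.0828). MRH2 did not pass without La 3 (adjusted p = 0.0522).

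**Figure D3:**
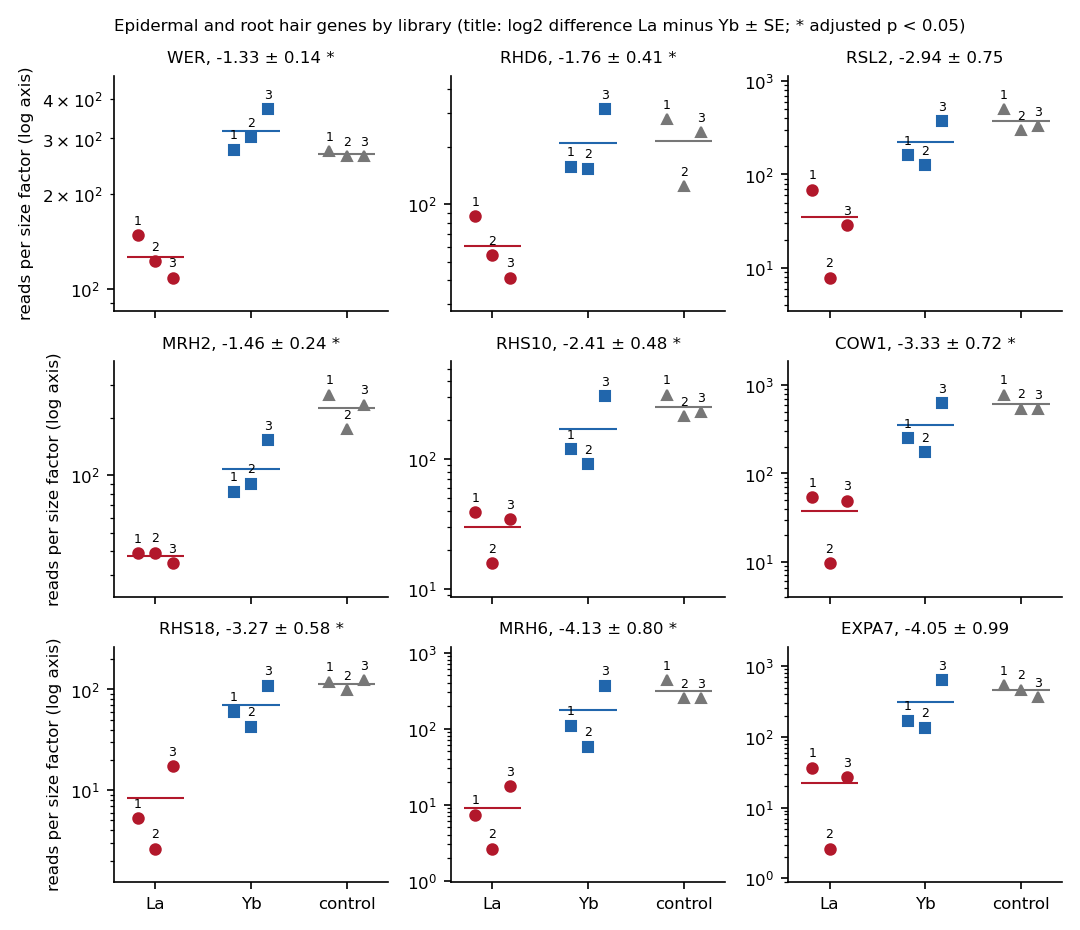
Normalised reads (reads per size factor) of 9 epidermal and root hair genes in each root library, on log axes; points are libraries, marked by replicate number, bars are group means, and panel titles give the log2 difference La minus Yb with its SE and a star where the adjusted p was below 0.05. All La points lie below all Yb points in each panel, and Yb 3 is the highest Yb library in each.

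Promoters of 3 of the hair genes are shown because a known sequence, the root hair element bound by RSL4 and its relatives, stands in each. They were picked for holding it. MRH6 and RHS18 passed the threshold and EXPA7 did not. Each run is the 300 bases before the annotated gene start in the TAIR10.1 assembly of RefSeq, read 5′ to 3′ on the gene's strand, which is the plus strand for all 3. Capitals mark the root hair element.
MRH6, chr2:1131820-1132119: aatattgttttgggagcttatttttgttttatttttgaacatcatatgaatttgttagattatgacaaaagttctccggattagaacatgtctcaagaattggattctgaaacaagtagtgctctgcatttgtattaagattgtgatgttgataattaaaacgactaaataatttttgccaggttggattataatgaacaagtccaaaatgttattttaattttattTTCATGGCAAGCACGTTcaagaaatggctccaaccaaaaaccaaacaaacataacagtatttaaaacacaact
RHS18, chr5:7426010-7426309: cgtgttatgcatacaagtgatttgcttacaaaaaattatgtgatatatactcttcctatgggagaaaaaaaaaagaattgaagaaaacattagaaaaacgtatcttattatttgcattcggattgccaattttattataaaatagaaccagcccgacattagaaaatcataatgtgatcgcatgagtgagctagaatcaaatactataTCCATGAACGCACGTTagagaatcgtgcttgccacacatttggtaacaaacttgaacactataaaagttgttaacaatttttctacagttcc
EXPA7, chr1:4276205-4276504: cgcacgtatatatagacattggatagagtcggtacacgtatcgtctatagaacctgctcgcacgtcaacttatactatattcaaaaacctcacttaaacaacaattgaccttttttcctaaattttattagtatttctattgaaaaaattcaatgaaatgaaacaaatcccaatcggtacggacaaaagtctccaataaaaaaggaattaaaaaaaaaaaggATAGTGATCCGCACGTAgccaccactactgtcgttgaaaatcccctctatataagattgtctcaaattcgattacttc
The element begins 73 bases before the start of MRH6, 92 before that of RHS18 and 78 before that of EXPA7. It was found on either strand in 9 of the 23 promoters of the hair growth genes (39.1%), against 203 of 21916 promoters of tested genes (0.926%). It was in 24 of 865 promoters of genes lower with La (2.77%) and in 6 of 596 of those higher with La (1.01%). Several of the hair genes were identified through this element in earlier work, so its share in the list is not independent of how the genes became known. COW1, RHS10 and MRH2, which also fell past the threshold, had no match in their window.

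Among enzymes and expansins that remodel the primary wall, 6 of 34 tested genes fell with La, 2 rose and 26 did not pass, with a median of -0.10. XTH17 (AT1G65310), a xyloglucan endotransglucosylase, had 79.1, 32.3 and 69.1 with La, 334, 199.5 and 596 with Yb and 755, 681 and 567 in the controls, and fell by 2.59 ± 0.45 (adjusted p = 0.0213). The beta-expansin gene EXPB1 (AT2G20750) had 26.4, 16.6 and 18.2 with La, 87.7, 73.5 and 246 with Yb and 267, 119.5 and 209 in the controls, and fell by 2.51 ± 0.47 (adjusted p = 0.0223). EXPA11 (AT1G20190) fell by 1.81 ± 0.33 (adjusted p = 0.0223), EXPA14 (AT5G56320) fell by 1.61 ± 0.29 (adjusted p = 0.0212), EXPA3 (AT2G37640) fell by 0.85 ± 0.21 (adjusted p = 0.0434) and XTH4 (AT2G06850) fell by 0.47 ± 0.12 (adjusted p = 0.0428). The opposite direction was taken by XTH24 (AT4G30270), with 1478, 1911 and 1840 with La, 686, 660.2 and 331 with Yb and 400.4, 356 and 407 in the controls, a rise of 1.7 ± 0.26 (adjusted p = 0.0145). XTH11 (AT3G48580) had 96.0, 191 and 105 with La, 26.7, 25.8 and 2.05 with Yb and 0, 0 and 0 in the controls. It was higher by 3.35 ± 0.81 (adjusted p = 0.042) with La than with Yb, and no control library held a read of it. For XTH11, the difference changed on leaving out Yb 3 (to 2.22). XTH17 shares 90.7% of 1225 bases with XTH18, so their reads may be mixed. XTH17 did not pass without La 2, La 3 or Yb 1 (adjusted p = 0.057 to 0.064). EXPB1 did not pass without La 2 or La 3 (adjusted p = 0.083 to 0.0845). EXPA11 did not pass without La 3, Yb 1 or Yb 3 (adjusted p = 0.0636 to 0.0786). EXPA14 did not pass without La 2, La 3, Yb 1 or Yb 3 (adjusted p = 0.0521 to 0.0806). EXPA3 passed without La 1, but not without any other library (adjusted p = 0.0555 to 0.136). XTH4 passed without Yb 2 or control 1, but not without any other library (adjusted p = 0.0507 to 0.132). XTH24 did not pass without La 2 or La 3 (adjusted p = 0.0542 to 0.0551). XTH11 passed without Yb 2 or Yb 3, but not without any other library (adjusted p = 0.0515 to 0.132). Without Yb 3, 2 members were higher and 2 lower, and in the 6 La and Yb libraries alone 1 was higher and 3 lower.

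Among genes of Casparian strips and suberin, 3 suberin genes rose with La while no Casparian strip gene passed. Roots were sequenced whole, so these differences cannot be placed in a single cell layer. Of the 14 Casparian strip genes tested, limma gave adjusted p = 0.0622 or more, with 10 at an unadjusted p under 0.05 and a median of -0.71. edgeR called none and DESeq2 on the recovered reads called 3 of them lower. The scaffold gene CASP1 (AT2G36100) had 617, 182 and 461 with La, 859.6, 747 and 1790 with Yb and 1895, 1125 and 1541 in the controls, a difference of -1.49 ± 0.51 (95% interval -2.69 to -0.29, adjusted p = 0.136). Its groups did not overlap, with La 2 lowest and Yb 3 at the level of the controls. The same order was seen in CASP4 (AT5G06200), with a difference of -2.81 ± 0.75 (adjusted p = 0.0685). Without Yb 3 the list median was -0.39. Of 18 tested suberin genes, 3 rose with La, 15 did not pass and all 18 differences were positive, with a median of 0.51. ABCG6 (AT5G13580), a transporter needed for suberin in roots, had 775, 744 and 812 with La, 473, 366 and 539.6 with Yb and 498, 372 and 369 in the controls, a rise of 0.77 ± 0.15 (adjusted p = 0.0223). The elongase gene KCS2 (AT1G04220) rose by 0.60 ± 0.13 (adjusted p = 0.0305) and the acyltransferase gene GPAT5 (AT3G11430) by 0.58 ± 0.15 (adjusted p = 0.0465). CYP86A1 (AT5G58860), the fatty acid hydroxylase of root suberin, had 1978, 1761 and 2018 with La, 1703, 972 and 1414 with Yb and 864, 914 and 859 in the controls, a difference of 0.53 ± 0.17 (95% interval 0.14 to 0.91) that did not pass (adjusted p = 0.0977). La is high and Yb 2 low in each of these 4 genes. ABCG6 did not pass without La 2, La 3 or Yb 1 (adjusted p = 0.0555 to 0.084). KCS2 did not pass without La 2, La 3, Yb 1, Yb 2, Yb 3 or control 3 (adjusted p = 0.0531 to 0.11). GPAT5 passed without Yb 1 or Yb 2, but not without any other library (adjusted p = 0.0624 to 0.123). The suberin count ran from 0 without La 2 or La 3 to 3 without control 1, and was 1 without Yb 3 with a median of 0.57. KCS2 overlaps a gene on the opposite strand over 2302 bases, and the strand setting of the counting is not given in the sources used here.

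Of 23 tested aquaporin genes, which encode water and solute channels, 3 fell with La and 20 did not pass, with a median of -0.28. Over all genes tested, 3.81% fell. TIP4;1 (AT2G25810), of the vacuolar membrane, had 160.3, 54.2 and 109 with La, 412, 280.0 and 538 with Yb and 643, 556 and 517 in the controls, and fell by 2.0 ± 0.39 (adjusted p = 0.0279). NIP1;1 (AT4G19030) had 127, 78.6 and 63.4 with La, 339, 181 and 525 with Yb and 313, 592 and 442 in the controls, and fell by 1.89 ± 0.43 (adjusted p = 0.0438). PIP2;3 (AT2G37180), of the plasma membrane, fell by 0.82 ± 0.18 (adjusted p = 0.0341); it is 90.7% identical to PIP2;2. In TIP4;1 and NIP1;1 all La libraries lie well below all others. PIN2 (AT5G57090), the auxin carrier of the root epidermis and cortex, had 687, 314 and 455 with La, 986, 920.3 and 1071 with Yb and 891, 958 and 1036 in the controls, and fell by 1.1 ± 0.24 (adjusted p = 0.0351). Of 21 tested genes of auxin carriers and cytokinin response, only PIN2 passed under limma, against 6.45% of all genes tested. The mitotic cyclin gene CYCB2;3 (AT1G20610) fell by 0.62 ± 0.10 (adjusted p = 0.0127). Of the 14 cell cycle genes, 13 had negative differences and this 1 passed, against 6.45% of all genes tested. TIP4;1 did not pass without La 3, Yb 1 or Yb 3 (adjusted p = 0.0762 to 0.0967). NIP1;1 passed without La 1 or Yb 2, but not without any other library (adjusted p = 0.0542 to 0.138). PIP2;3 did not pass without La 2, La 3, Yb 1, Yb 3 or control 3 (adjusted p = 0.0587 to 0.11). PIN2 passed without La 1 or La 2, but not without any other library (adjusted p = 0.0544 to 0.121). CYCB2;3 did not pass without La 3 (adjusted p = 0.05). The aquaporin count ran from 0 without La 3 or Yb 1 to 6 without Yb 2 and was 1 without Yb 3 and 0 in the 6 La and Yb libraries alone. It was 3 with edgeR, 7 with library weights and 10 with DESeq2.

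Of the iron genes, IRT1 and FRO3 rose with La and the ferritin gene FER3 fell, while FRO2, FIT and the IMA peptides did not pass. Of 20 tested regulators 1 rose, of 12 uptake and coumarin genes 2 rose and of 21 genes of iron movement and storage 1 fell. Over all genes tested, 2.64% rose and 3.81% fell. The list medians were 0.24, 0.13 and 0.19. Among the 20 regulators 18 differences were positive and 2 negative, the highest was 1.49, and 6 had an unadjusted p under 0.05 in limma. In 9 regulators the La libraries lay wholly above the Yb libraries, against 13.9% of all genes tested. FRO3 (AT1G23020), a ferric reductase of mitochondria and vascular tissue, had 1534, 1727 and 1876 normalised reads in La roots, 1153, 957 and 943 in Yb roots and 821, 876 and 734 in control roots. It rose by 0.75 ± 0.11 (adjusted p = 0.0103), with all La values above all others, and stayed past the threshold without each of the 9 libraries in turn. IRT1 (AT4G19690) had 5634, 7132 and 9719 with La, 4566, 3294 and 3413 with Yb and 3722, 2452 and 2661 in the controls, a rise of 0.98 ± 0.23 (adjusted p = 0.0427), with the Yb libraries just above or within the range of the controls. The ferric reductase gene FRO2 (AT1G01580) had 4432, 5390 and 8116 with La, 5088, 3343 and 3637 with Yb and 3840, 2153 and 2509 in the controls, and its difference of 0.55 ± 0.29 (95% interval -0.11 to 1.2) did not pass (adjusted p = 0.302). La 1 lies below Yb 1 here. AT1G74770, a member of the list of regulators, rose by 0.54 ± 0.14 (adjusted p = 0.0445). The ferritin gene FER3 (AT3G56090), whose product stores iron, had 495, 419 and 397 with La, 668, 629 and 824 with Yb and 1070, 914 and 887 in the controls, and fell by 0.69 ± 0.12 (adjusted p = 0.0169).

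Of the other regulators none passed under limma in all 9 libraries, while DESeq2 called 4 of the 20 higher and the 6 La and Yb libraries alone gave 3. IMA1 (AT1G47400) had 146, 184 and 149 with La, 144, 158 and 117 with Yb and 26.6, 20.9 and 11.3 in the controls, a difference of 0.20 ± 0.28 (95% interval -0.43 to 0.82, adjusted p = 0.736). IMA2 (AT1G47395) had a difference of 0.27 ± 0.42 (95% interval -0.70 to 1.24, adjusted p = 0.761), and FIT (AT2G28160) of -0.19 ± 0.13 (95% interval -0.49 to 0.10, adjusted p = 0.433). BHLH38 (AT3G56970) had 813, 1425 and 1025 with La, 513, 479.5 and 427 with Yb and 252, 166 and 77.1 in the controls. Every La value lies above every Yb value, yet the difference of 1.17 ± 0.41 (95% interval 0.22 to 2.11) did not pass (adjusted p = 0.135). It passed with DESeq2 (adjusted p = 0.00497), in the 6 La and Yb libraries alone (adjusted p = 0.0412) and without control 3 (adjusted p = 0.0379). The phloem transporter gene OPT3 (AT4G16370) had 0.44 ± 0.20 (95% interval 0.00 to 0.87, adjusted p = 0.219) and the ferritin gene FER1 (AT5G01600) -0.24 ± 0.17 (95% interval -0.62 to 0.13, adjusted p = 0.428). Side by side, IRT1 gave 1.34 ± 0.23 for La minus control and 0.36 ± 0.23 for Yb minus control, IMA1 3.07 ± 0.28 for La minus control and 2.87 ± 0.28 for Yb minus control, and BHLH38 2.84 ± 0.41 for La minus control and 1.67 ± 0.41 for Yb minus control; the same 3 control libraries enter each pair. Without Yb 3 the differences were 0.91 for IRT1, 0.70 for FRO3 and 0.07 for IMA1. IRT1 passed without La 1 or control 1, but not without any other library (adjusted p = 0.0549 to 0.14). AT1G74770 did not pass in any of the 9 fits that left out a library (adjusted p = 0.0519 to 0.146). FER3 did not pass without La 2 or La 3 (adjusted p = 0.0587 to 0.0671). BHLH38, FER1 and AT1G74770 overlap genes on the opposite strand over 386, 1334 and 471 bases.

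Zinc transporter genes went in both directions in limma, with 1 of 17 tested members higher, 2 lower and a median of -0.05. Over all genes tested, 2.64% were higher and 3.81% lower. The directions depended on the method: edgeR called 2 higher and 0 lower, and DESeq2 2 higher and 2 lower. Without La 3, limma called 1 higher and 0 lower. ZIP2 (AT5G59520) had 463, 488 and 408 normalised reads in La roots, 135, 154 and 74.7 in Yb roots and 132, 116 and 152 in control roots. It rose by 1.96 ± 0.24 (adjusted p = 0.00794), with La far above both other groups and Yb 3 the lowest of all, and it stayed past the threshold without each of the 9 libraries in turn. Without Yb 3 its difference was 1.64. ZIP10 (AT1G31260) was at 0 in all La libraries, against 4.76, 5.96 and 48.1 with Yb and 8.87, 20.9 and 12.3 in the controls. This made it at least 6.79-fold lower with La than with Yb, against the floor of 3 reads per library (adjusted p = 0.015). The bound rests on Yb 3, without which it is 1.86-fold. ZIP5 (AT1G05300) had 93.9, 42.8 and 71.0 with La, 122, 121 and 157 with Yb and 129, 126 and 105 in the controls, and fell by 1.0 ± 0.25 (adjusted p = 0.0465). ZIP9 (AT4G33020), a marker of zinc shortage, had -0.31 ± 0.31 (95% interval -1.0 to 0.38, adjusted p = 0.609). Against the controls, ZIP2 gave 1.76 ± 0.24 for La minus control and -0.19 ± 0.24 for Yb minus control, and ZIP5 -0.85 ± 0.25 for La minus control and 0.15 ± 0.25 for Yb minus control. ZIP10 did not pass without La 3 (adjusted p = 0.0526). ZIP5 passed without La 1, but not without any other library (adjusted p = 0.0641 to 0.134). Of 14 tested copper and metallothionein genes, the copper pump gene HMA5 (AT1G63440) rose by 0.29 ± 0.08 (adjusted p = 0.049), and the others did not pass. The share that passed over all genes tested was 6.45%. HMA5 did not pass in any of the 9 fits that left out a library (adjusted p = 0.055 to 0.166).

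**Figure D4:**
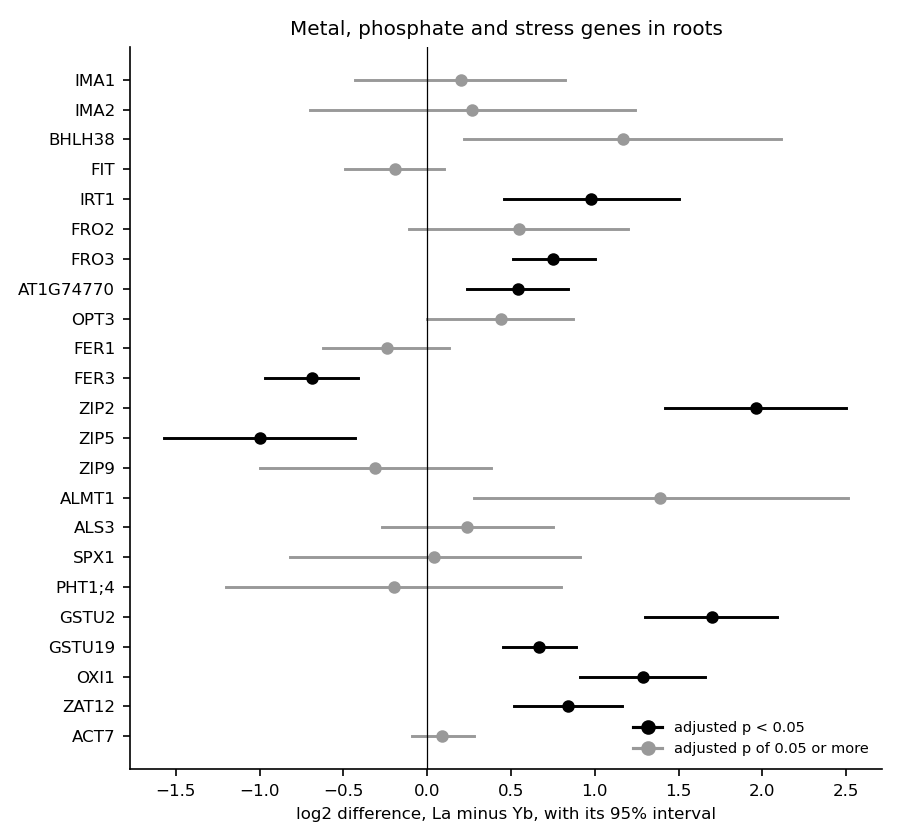
Log2 difference, La minus Yb, with its 95% interval for 23 genes of iron, zinc, aluminium, phosphate and stress, the actin gene ACT7 among them; black genes passed an adjusted p of 0.05 and grey genes did not. ZIP2 has the largest difference (1.96, interval 1.42 to 2.5), while the intervals of IMA1, FIT, SPX1 and ACT7 include 0.

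None of 25 tested genes of phosphate uptake and signalling and none of 14 of phosphate salvage and lipid remodelling passed under limma, edgeR or DESeq2. Their medians were 0.04 and 0.01, and 4 and 1 genes had an unadjusted p under 0.05 in limma. SPX1 (AT5G20150), a sensor of phosphate state, had 16468, 19203 and 11710 with La, 15504, 13832 and 15738 with Yb and 19324, 6782 and 7958 in the controls, a difference of 0.04 ± 0.37 (95% interval -0.82 to 0.91, adjusted p = 0.961). The phosphate transporter gene PHT1;4 (AT2G38940) had -0.20 ± 0.43 (95% interval -1.2 to 0.80, adjusted p = 0.832). A single Yb library set apart PHT1;3 (AT5G43360), another transporter of this family, which had 1.05, 0 and 0 with La, 2.86, 3.97 and 2042 with Yb and 35.5, 17.9 and 23.6 in the controls. With 1 read in all with La, its ratio of La to Yb was 0.000484 (95% counting interval 1.22e-05 to 0.0027), and its difference did not pass (adjusted p = 0.203). DESeq2 gave this gene no adjusted p, so the DESeq2 result above does not cover it. The ratio was 0.0937 without Yb 3 (95% counting interval 0.00208 to 0.73). It is 90.2% identical to PHT1;1.

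Aluminium, another trivalent metal, has tolerance genes of its own. None of 11 tested passed under limma or edgeR, with a median of 0.34 and 5 genes at an unadjusted p under 0.05 in limma. DESeq2 called 3 higher. The malate channel gene ALMT1 (AT1G08430) had 306, 512 and 613 with La, 222, 286 and 82.9 with Yb and 176, 161 and 106 in the controls. Its groups did not overlap, and its difference of 1.39 ± 0.48 (95% interval 0.28 to 2.51) did not pass (adjusted p = 0.132). ALS3 (AT2G37330), a transporter-like protein named for aluminium sensitivity, had 0.24 ± 0.23 (95% interval -0.27 to 0.75, adjusted p = 0.593). None of 15 calcium pumps and channels passed under limma, edgeR or DESeq2, with a median of 0.06, differences of -0.34 to 0.60 and 1 gene at an unadjusted p under 0.05 in limma. Of 12 calmodulin-like and touch genes 1 fell, against 3.81% of all genes tested. CML39 (AT1G76640) had 5.27, 11.4 and 4.8 normalised reads in La roots, 60.0, 51.6 and 46.1 in Yb roots and 58.8, 29.9 and 79.1 in control roots. It fell by 2.89 ± 0.41 (adjusted p = 0.00954), and only the La libraries were low; it stayed past the threshold without each of the 9 libraries in turn.

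Among genes of the other nutrients, the high-affinity nitrate transporter gene NRT2.4 (AT5G60770) was at 0 in all La libraries, against 5.72, 3.97 and 9.21 with Yb and 3.33, 1.99 and 1.03 in the controls. It was at least 2.18-fold lower with La than with Yb (adjusted p = 0.0137), and stayed past the threshold without each library in turn. NRT1.2 (AT1G69850), a low-affinity nitrate transporter that also carries abscisic acid, rose by 0.35 ± 0.08 (adjusted p = 0.0382). Of the 24 tested genes of nitrate, ammonium and potassium these 2 passed, against 6.45% of all genes tested. NRT2.1 (AT1G08090), the main high-affinity nitrate transporter, had 0.15 ± 0.44 (95% interval -0.88 to 1.17, adjusted p = 0.883) and the potassium transporter gene HAK5 (AT4G13420) -0.56 ± 0.62 (95% interval -1.99 to 0.88, adjusted p = 0.653). None of 18 sulfate genes passed under limma, edgeR or DESeq2, with a median of 0.05 and 3 at an unadjusted p under 0.05 in limma. SULTR1;1 (AT4G08620), a sulfate transporter induced by sulfur shortage, had 142, 186 and 245 with La, 215, 214 and 715 with Yb and 575, 1020 and 985 in the controls and a difference of -0.78 ± 0.49 (95% interval -1.93 to 0.37, adjusted p = 0.401). The sulfate reductase gene APR3 (AT4G21990) had 0.30 ± 0.12 (95% interval 0.03 to 0.57, adjusted p = 0.173). NRT1.2 passed without La 1 or control 2, but not without any other library (adjusted p = 0.0502 to 0.122).

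Glutathione transferases, which attach glutathione to reactive and foreign compounds, were the list with most members higher with La. Of 25 tested, 7 rose, 1 fell and 17 did not pass, with a median of 0.47. GSTU2 (AT2G29480) had 154, 168 and 159 normalised reads in La roots, 57.2, 51.6 and 39.9 in Yb roots and 56.6, 45.8 and 58.6 in control roots. It rose by 1.7 ± 0.18 (adjusted p = 0.00536), with La high and the Yb and control libraries at the same level. Its neighbour GSTU1 (AT2G29490) had 979, 1144 and 1194 with La, 674, 614 and 638 with Yb and 571, 703 and 722 in the controls, a rise of 0.78 ± 0.11 (adjusted p = 0.00901). GSTU19 (AT1G78380) had 6183, 6208 and 5571 with La, 4107, 3830 and 3366 with Yb and 3901, 4240 and 3579 in the controls, a rise of 0.67 ± 0.10 (adjusted p = 0.0107). These 3 genes stayed past the threshold without each of the 9 libraries in turn, and their Yb values are within or near the range of the controls. GSTU22 (AT1G78340) had 3921, 4512 and 4171 with La, 1261, 1689 and 448 with Yb and 554, 919 and 569 in the controls, a rise of 2.09 ± 0.46 (adjusted p = 0.0431), with Yb 3 below Yb 1 and Yb 2. GSTU24 (AT1G17170) rose by 0.93 ± 0.16 (adjusted p = 0.015), GSTU8 (AT3G09270) by 1.68 ± 0.37 (adjusted p = 0.0418) and GSTU7 (AT2G29420) by 0.67 ± 0.17 (adjusted p = 0.0467). GSTU12 (AT1G69920) had 55.9, 50.7 and 70.1 with La, 148, 159.8 and 93.2 with Yb and 92.1, 83.7 and 56.5 in the controls, and fell by 1.15 ± 0.25 (adjusted p = 0.0295), with Yb high and La near the controls. GSTU22 passed without Yb 2 or Yb 3, but not without any other library (adjusted p = 0.0563 to 0.13). GSTU24 did not pass without La 3 (adjusted p = 0.054). GSTU8 passed without Yb 2 or Yb 3, but not without any other library (adjusted p = 0.0563 to 0.129). GSTU7 passed without La 1 or control 1, but not without any other library (adjusted p = 0.0504 to 0.148). GSTU12 did not pass without La 1, La 2, La 3, Yb 1 or Yb 2 (adjusted p = 0.0543 to 0.0955). Without Yb 3, 6 were higher and 1 lower, and without La 3, 3 were higher. GSTU2 overlaps a gene on the opposite strand over 849 bases.

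Of 16 tested genes of oxidative stress, 5 rose with La, 11 did not pass and none fell, with a median of 0.40. OXI1 (AT3G25250), a kinase switched on by hydrogen peroxide, had 425, 463 and 456 with La, 212, 214 and 135 with Yb and 169, 154 and 139.8 in the controls, a rise of 1.29 ± 0.17 (adjusted p = 0.00794). The zinc finger factor ZAT12 (AT5G59820) had 1015, 1379 and 1003 with La, 703, 594 and 586 with Yb and 432, 522 and 406 in the controls, a rise of 0.84 ± 0.14 (adjusted p = 0.0149). Both have all La libraries on top and stayed past the threshold without each library in turn. AOX1A (AT3G22370), the alternative oxidase of mitochondria, had 584, 569.6 and 431 with La, 312, 305 and 331 with Yb and 399, 389 and 288 in the controls, a rise of 0.73 ± 0.15 (adjusted p = 0.0233) with Yb close to the controls. NAC013 (AT1G32870), a factor in signals from mitochondria to the nucleus, rose by 1.04 ± 0.24 (adjusted p = 0.0378) and the catalase gene CAT1 (AT1G20630) by 0.49 ± 0.11 (adjusted p = 0.0279). AOX1A did not pass without La 2, Yb 1 or Yb 2 (adjusted p = 0.0536 to 0.0799). NAC013 passed without Yb 2 or Yb 3, but not without any other library (adjusted p = 0.0525 to 0.111). CAT1 did not pass without La 1, La 2, La 3, Yb 1 or Yb 3 (adjusted p = 0.0595 to 0.0822). The count was 5 without Yb 3 and ran from 2 without La 2 or Yb 1 to 5 without Yb 3 or control 2. BZIP60 (AT1G42990), a factor of the unfolded protein response, rose by 0.68 ± 0.15 (adjusted p = 0.0329). The other 8 tested genes of the endoplasmic reticulum folding list did not pass in limma, where 6.45% of all genes tested passed. DESeq2 called 1 of these 8 lower. BZIP60 did not pass without La 2, La 3, Yb 1, Yb 3 or control 3 (adjusted p = 0.0568 to 0.0999).

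Of 25 tested genes of salicylic acid signalling and immunity, 5 fell with La, 20 did not pass and none rose, with a median of -0.64, and 16 had La libraries wholly below the Yb libraries, against 14.8% of all genes tested. WRKY40 (AT1G80840), a factor that restrains immune responses, had 84.4, 76.9 and 114 normalised reads in La roots, 174, 182 and 222 in Yb roots and 153, 143 and 158 in control roots. It fell by 1.08 ± 0.16 (adjusted p = 0.0109), with La below and Yb above every control, and stayed past the threshold without each library in turn. WRKY38 (AT5G22570) had 15.8, 19.2 and 25.0 with La, 55.3, 93.3 and 206 with Yb and 59.9, 54.8 and 71.9 in the controls, and fell by 2.35 ± 0.41 (adjusted p = 0.0163). SARD1 (AT1G73805), a regulator of salicylic acid synthesis, had 173, 148 and 154 with La, 346, 292 and 547 with Yb and 267, 396 and 310.4 in the controls, and fell by 1.26 ± 0.22 (adjusted p = 0.0182). EDS5 (AT4G39030), the transporter that exports a salicylic acid precursor from plastids, was lower with La than with Yb by 0.73 ± 0.18 (adjusted p = 0.0473). EDS5 gave -0.24 ± 0.18 for La minus control and 0.49 ± 0.18 for Yb minus control. CYP71A12 (AT2G30750), an enzyme of indolic defence compounds, had 362, 304 and 336 with La, 1028, 904 and 466 with Yb and 139.8, 220.1 and 171 in the controls, and fell by 1.18 ± 0.29 (adjusted p = 0.0485). It differs from the others in that both metals lie above the controls and Yb farther. The count was 5 also without Yb 3, ran from 1 without La 2 to 5 without Yb 2 or Yb 3, and was 2 in the 6 La and Yb libraries alone. WRKY38 did not pass without La 2 (adjusted p = 0.0587). SARD1 did not pass without La 2 or La 3 (adjusted p = 0.0656 to 0.0699). EDS5 passed without Yb 2 or Yb 3, but not without any other library (adjusted p = 0.0645 to 0.138). CYP71A12 passed without Yb 3, but not without any other library (adjusted p = 0.0579 to 0.149). CYP71A12 shares 90.4% of its bases with CYP71A13, and SARD1 overlaps a gene on the opposite strand over 640 bases.

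Among the other hormones, the ethylene synthesis gene ACS5 (AT5G65800) was at 0 in all La libraries, against 3.81, 4.96 and 24.6 with Yb and 29.9, 24.9 and 58.6 in the controls. It was at least 3.85-fold lower with La than with Yb (adjusted p = 0.0137), and at least 1.52-fold without Yb 3. The call held without each library in turn in limma, and edgeR gave adjusted p = 0.0621. The jasmonate repressor gene JAZ6 (AT1G72450) rose by 0.37 ± 0.09 (adjusted p = 0.039). Of 22 tested jasmonate genes only JAZ6 passed under limma, and of 20 tested ethylene genes only ACS5. Over all genes tested the share was 6.45%. An unadjusted p under 0.05 in limma was seen for 8 jasmonate and 4 ethylene genes. edgeR called 2 jasmonate genes higher and no ethylene gene. DESeq2 called 3 jasmonate genes higher and 1 lower, and 1 ethylene gene in each direction. The 6 La and Yb libraries alone gave 1 jasmonate gene lower and none higher. None of 23 abscisic acid and dehydration genes passed under limma or edgeR, with a median of 0.59 and 7 at an unadjusted p under 0.05 in limma. Of the differences 21 were positive, the highest 3.71. DESeq2, quantile normalisation and the fits without La 1 or Yb 1 called 2 higher each, and library weights 4. The fits without any other library called none. Of 17 tested genes of senescence and sugar starvation 2 rose and 1 fell, against 2.64% and 3.81% of all genes tested. NAC092 (AT5G39610), a factor that drives leaf senescence, had 923, 1067 and 1020 with La, 440.3, 467 and 280.5 with Yb and 115, 147 and 175 in the controls, a rise of 1.37 ± 0.20 (adjusted p = 0.0123) that held without each library in turn. Here the groups step down in the order La, Yb, control with no overlap. NYC1 (AT4G13250), a reductase of chlorophyll b breakdown, had 416, 798 and 418 with La, 219, 249 and 167 with Yb and 68.8, 102 and 83.2 in the controls, a rise of 1.31 ± 0.27 (adjusted p = 0.0283). WRKY53 (AT4G23810), linked to both senescence and defence, fell by 0.85 ± 0.19 (adjusted p = 0.0329). JAZ6 passed without La 1 or control 1, but not without any other library (adjusted p = 0.0556 to 0.135). NYC1 did not pass without La 3, Yb 1, Yb 3 or control 3 (adjusted p = 0.0532 to 0.089). WRKY53 did not pass without La 2, La 3, Yb 1, Yb 3 or control 3 (adjusted p = 0.0548 to 0.0924).

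Among genes with the largest rises in La roots, AT4G08550 and MYB62 had few reads in Yb and control roots. AT4G08550, annotated as an electron carrier, had 22.1, 19.2 and 17.3 normalised reads in La roots, 2.86, 0.993 and 0 in Yb roots and 1.11, 0 and 0 in control roots. It rose by 3.88 ± 0.77 (adjusted p = 0.0223). MYB62 (AT1G68320), a MYB factor known from responses to phosphate shortage, had 19.0, 39.3 and 11.5 with La, 0.953, 2.98 and 2.05 with Yb and 0, 0 and 0 in the controls, a rise of 3.17 ± 0.60 (adjusted p = 0.0199). NADP-ME1 (AT2G19900), a malic enzyme of the cytosol, had 102, 142 and 65.3 with La, 11.4, 19.9 and 20.5 with Yb and 22.2, 4.98 and 7.19 in the controls, a rise of 2.52 ± 0.52 (adjusted p = 0.0246) with Yb within the range of the controls. PYD4 (AT3G08860), an aminotransferase of pyrimidine breakdown, had 988, 1538 and 948 with La, 308, 348 and 90.1 with Yb and 41.0, 27.9 and 34.9 in the controls, a rise of 2.41 ± 0.49 (adjusted p = 0.0345); Yb lies between La and the controls. LBD25 (AT3G27650), of the LOB-domain factors, had 318, 549.5 and 506 with La, 129, 183 and 49.1 with Yb and 71.0, 97.6 and 82.2 in the controls, a rise of 2.08 ± 0.45 (adjusted p = 0.0363). AT1G02470, a polyketide cyclase family gene, had 78.1, 115 and 89.3 with La, 23.8, 29.8 and 12.3 with Yb and 12.2, 11.9 and 10.3 in the controls, a rise of 2.15 ± 0.33 (adjusted p = 0.0112). The zinc finger gene AT3G46080 had 266, 389.6 and 291 with La, 89.6, 112 and 48.1 with Yb and 46.6, 56.8 and 34.9 in the controls, a rise of 1.98 ± 0.31 (adjusted p = 0.0132). Rises were also found in the tubby-like gene TLP5 (AT1G43640) (2.42 ± 0.50), EDA12 (AT2G35950) (2.21 ± 0.54) and AT4G35690 (2.12 ± 0.45). Of these, AT1G02470 and AT3G46080 stayed past the threshold without each of the 9 libraries in turn. For AT4G08550, the difference changed on leaving out Yb 1 (to 4.53) or Yb 3 (to 3.16). For PYD4, the difference changed on leaving out Yb 3 (to 1.79). AT4G08550 did not pass without La 2 or La 3 (adjusted p = 0.0727 to 0.0768). MYB62 did not pass without La 2 or Yb 1 (adjusted p = 0.057 to 0.0813). NADP-ME1 did not pass without La 2, La 3, Yb 1 or Yb 3 (adjusted p = 0.0528 to 0.0841). PYD4 passed without Yb 2 or Yb 3, but not without any other library (adjusted p = 0.0542 to 0.109). LBD25 did not pass without La 2, La 3, Yb 1, control 1, control 2 or control 3 (adjusted p = 0.0563 to 0.119). TLP5 did not pass without La 2, La 3, Yb 1 or Yb 3 (adjusted p = 0.0509 to 0.0948). EDA12 passed without control 2 or control 3, but not without any other library (adjusted p = 0.0525 to 0.143). AT4G35690 did not pass without La 2, La 3, Yb 1 or Yb 3 (adjusted p = 0.0689 to 0.109).

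Several lists gave few or no calls. None of the tested genes of xylem walls (16), phenylpropanoids (15), flavonoids (11), triterpene clusters (7), heat shock (10) and photosynthesis (17) passed under limma or edgeR, with medians of -0.10, -0.08, -0.27, 0.38, 0.21 and 0.36. DESeq2 called 1 phenylpropanoid gene higher and 1 lower, and none in the other 5 lists. At an unadjusted p under 0.05 in limma there were 3 genes each of phenylpropanoids and flavonoids, 1 of photosynthesis and none of the other 3 lists. None of 12 reference genes passed under limma or edgeR (median 0.05, 3 at an unadjusted p under 0.05 in limma), and DESeq2 called 1 higher and 2 lower; ACT7 (AT5G09810) had 0.09 ± 0.08 (95% interval -0.09 to 0.28). Photosynthesis genes mark green tissue in a root sample. Their sum was 1266 to 1625 normalised reads in La, 683 to 2019 in Yb and 783 to 1479 in control libraries, and the ranges overlap. Of 14 clock genes, which mark the hour of harvest, PRR5 (AT5G24470) was higher with La than with Yb by 0.34 ± 0.08 (adjusted p = 0.0445). PRR5 gave 0.04 ± 0.08 for La minus control and -0.30 ± 0.08 for Yb minus control. The clock sums were 8703 to 9353 with La, 7349 to 8002 with Yb and 7747 to 8202 in the controls, with every La library above the others; their part in the differences was not tested. Of 12 tested genes of the endocytosis list, only the clathrin light chain gene CLC3 (AT3G51890) passed under limma, against 6.45% of all genes tested. It was higher with La than with Yb by 0.37 ± 0.08 (adjusted p = 0.029). CLC3 gave 0.09 ± 0.08 for La minus control and -0.29 ± 0.08 for Yb minus control. PRR5 passed without La 1, but not without any other library (adjusted p = 0.058 to 0.147). CLC3 did not pass without La 1, La 2, La 3, Yb 1 or Yb 3 (adjusted p = 0.0523 to 0.102).

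**Figure D5:**
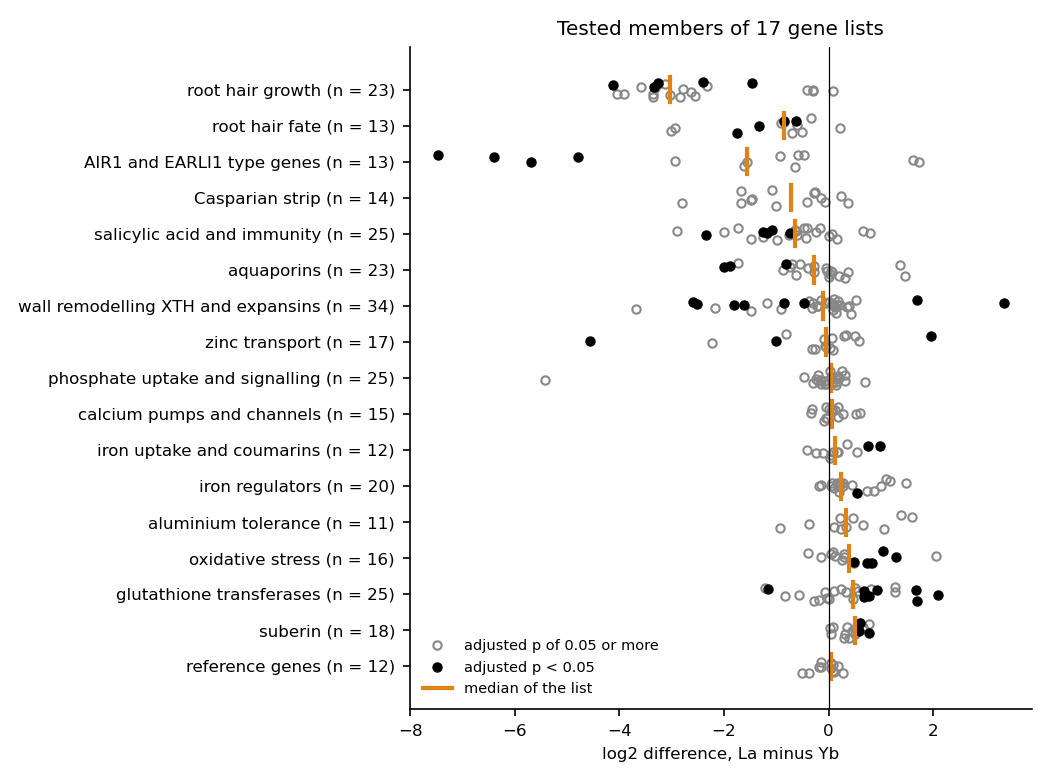
Log2 difference, La minus Yb, of each tested member of 17 gene lists; black points passed an adjusted p of 0.05, open points did not, and orange bars are list medians. The median of root hair growth genes lies at -3.04 and that of suberin genes at 0.51, while those of phosphate and reference genes lie at 0.04 and 0.05.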

How the data were processed

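RNA-seq of Arabidopsis roots was analysed from the table that the authors deposited. The deposited signal values are normalised by the authors: they are reads per gene scaled by 1 factor for each library, as seen from the values, which are whole multiples of what 1 read is worth within a tolerance of 0.001 for 100% of values. The submitters' processing notes name the TAIR10 build, HTSeq 0.6.1p1, TopHat2 2.1.1 and Trimmomatic 0.36.1. The strand setting is not given in the sources used here. A table of normalised values had been assumed, so log2(value + 0.5) was fitted with limma 3.58.1 (R 4.3.3) in the 9 root libraries, with treatment as the single factor, trended and robust empirical Bayes and Benjamini-Hochberg adjustment over the 22729 genes tested, at 0.05, two-sided. The fit was also run on simulated data. The outcome is not given here and is not taken as support for the calls. edgeR 4.0.16 (quasi-likelihood test, 1389 genes called) and DESeq2 1.42.0 (2529 called) on the recovered reads, other pseudocounts, filters, scalings and fits were alternatives. Gene names came from RefSeq, with 28781 of 28991 genes matched. Intervals of read ratios cover counting error only.

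Named genes were the 12 largest differences in each direction among called genes whose La and Yb libraries did not overlap and whose mean reached 10, up to 3 called members per list and direction by smallest p, a panel of 27 genes, and the 5 genes with the smallest p. To these 98 genes 28 were added after their values were seen: list members that complete a count or contrast with it. The members and all lists were chosen with earlier results of these data known. The 3 lists of the other observations were added after the values were seen. Counts of 38 lists with 674 members are described without a test of the list. Replicate numbers were not used as pairs in the fit.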

Additional observations from a re-analysis of the deposited data

How the results depend on the processing

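The 1466 calls became 1383 to 1573 with a pseudocount of 1 or 0.1, no filter on low values, a minimum of 10, TMM scaling, quantile normalisation or edgeR, and each of these settings kept between 1266 and 1458 of the same genes. Library weights gave 2744 calls (1207 higher with La, 1537 lower) and DESeq2 2529 (1027 higher, 1502 lower). The 6 La and Yb libraries alone gave 508 (270 higher, 238 lower). Leaving out 1 library gave 250 to 1475 calls, 116 to 564 of them higher and 134 to 911 lower. The cause of these differences was not tested. The fits without a library also held fewer samples. Same-numbered La and Yb libraries did not deviate together (r = 0.04, 0.18 and 0.03), so the numbers were not taken as pairs; a replicate block gave 1159 calls (466 higher, 693 lower), 1003 of them shared.

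Of the 96 called genes named in the text, 22 passed without every library in turn, 69 did not pass without La 3, 61 without La 2 and 39 without Yb 3. Quantile normalisation ended the calls of AT4G12520, IRT1, ZIP5, HMA5, EGL3, RHD6, PRR5, GL2, EXPA3 and CYP71A12, TMM scaling that of HMA5, no filter those of HMA5 and GL2, a pseudocount of 0.1 those of AT4G08550, XTH11 and EDA12, and a pseudocount of 1 that of AT1G51810. The 6 La and Yb libraries alone ended 47 of the 96 calls and the replicate block 15. Every sign change was in a gene that had not passed. SPX1 (0.04) was -0.02 with quantile normalisation and -0.08 with library weights, and ran from -0.11 to 0.25 without 1 library. BGLU23 (0.01) was -0.15 and -0.02 under the same settings and ran from -0.14 to 0.11. Without 1 library ALS3 ran from -0.04 to 0.40, NRT2.1 from -0.07 to 0.54 and HAK5 from -1.08 to 0.16. Genes with few reads in La roots, such as NRT2.4 and ACS5, have folds limited by depth.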

Other observations

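Genes of ER bodies, the myrosinase-filled compartments of Brassicaceae roots, and of the partner proteins of myrosinases had 5 of 17 tested members lower with La and none higher, with a median of -0.35. This list and the next 2 were put together after the values were seen, from genes among the smallest p-values, so their counts describe and support nothing. Beside BGLU21, AT1G54010 and NSP4, the calls were BGLU22 (AT1G66280) and GLL22 (AT1G54000). BGLU22, a beta-glucosidase, had 4460, 4815 and 4473 normalised reads in La roots, 9693, 9000 and 14611 in Yb roots and 9383, 7823 and 11546 in control roots, and fell by 1.24 ± 0.19 (adjusted p = 0.0125). GLL22, a lipase-like protein found with such glucosidases, had 3179, 2836 and 2920 with La, 5341, 4081 and 6932 with Yb and 5351, 4573 and 5488 in the controls, and fell by 0.84 ± 0.17 (adjusted p = 0.0231). In both, all La libraries lie below all others. BGLU23 (AT3G09260), the main glucosidase of seedling ER bodies, had 36909, 52073 and 38709 with La, 43985, 35078 and 46968 with Yb and 43332, 32745 and 39511 in the controls and a difference of 0.01 ± 0.17 (95% interval -0.36 to 0.38, adjusted p = 0.976). NAI2 (AT3G15950), needed to form the bodies, had -0.27 ± 0.14 (95% interval -0.57 to 0.03, adjusted p = 0.273). BGLU22 did not pass without La 3 (adjusted p = 0.05). GLL22 did not pass without La 2, La 3 or Yb 1 (adjusted p = 0.0635 to 0.0833). The count was 5 without Yb 3 and ran from 3 without La 3 to 6 without Yb 2. BGLU22 is 90.3% identical to BGLU21.

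Of 17 tested autophagy genes, 5 rose with La and none fell, with a median of 0.21. Autophagy encloses cell contents in membranes coated with ATG8 proteins. ATG8D (AT2G05630) had 1358, 1643 and 1650 normalised reads in La roots, 859.6, 881 and 587 in Yb roots and 600.1, 722 and 593 in control roots, a rise of 1.02 ± 0.16 (adjusted p = 0.0131). NBR1 (AT4G24690), a receptor that carries cargo to ATG8, had 13958, 13987 and 14182 with La, 8200, 8711 and 6749 with Yb and 5893, 7295 and 6769 in the controls, a rise of 0.84 ± 0.11 (adjusted p = 0.0084). ATG8B (AT4G04620) rose by 0.59 ± 0.10 (adjusted p = 0.0137), ATG8G (AT3G60640) by 0.56 ± 0.10 (adjusted p = 0.016) and ATG8I (AT3G15580) by 0.54 ± 0.10 (adjusted p = 0.0159). La libraries are the highest in ATG8D and NBR1. Against the controls NBR1 gave 1.08 ± 0.11 for La minus control and 0.24 ± 0.11 for Yb minus control. ATG8D did not pass without La 3 (adjusted p = 0.0519). ATG8G did not pass without La 2 (adjusted p = 0.0587). ATG8I did not pass without La 2, La 3 or Yb 1 (adjusted p = 0.0515 to 0.0587). The count was 5 without Yb 3 and ran from 3 without La 2 or La 3 to 6 without La 1. Of 17 tested genes of indolic glucosinolates and camalexin, 2 fell with La and none rose, with a median of 0.07.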
